A study of Mus musculus with 4 samples.

Results

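The cells of the CN4 neural stem cell (NSC) line, kept with the GSK3 inhibitor CHIR99021, were compared with those of the KN1 line, kept without it, gene by gene and against genes of like length. The comparison took every cell of both normalized tables, 3448 of CN4 and 3975 of KN1, which were 7423 of the 15255 cells of the 4 lines. Both lines came from mouse epiblast stem cells of 129/Sv origin, each as 1 derivation, and were grown as adherent cultures in serum-free medium with N-2 and B-27 supplements and the growth factors EGF and FGF2, each at 10 ng/ml. Beyond this medium, CN4 received 2 µM CHIR99021 and KN1 no further agent, as the labels give it. The remaining lines, XN1 and XN4, were kept with 10 µM XAV939, an inhibitor of tankyrase, and serve below only as side values. According to the study's description of the lines, CN4 and KN1 were derived in different experiment series by different experimenters, KN1 grew better on laminin and CN4 on gelatin, and growth of CN4 but not of KN1 was promoted by the kinase inhibitor Y27632. As each line was also 1 BD Rhapsody library, the line, the derivation, the library, and CHIR99021 cannot be told apart, and no test between the lines could be made.

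In canonical Wnt signaling, GSK3 marks β-catenin for destruction, and its inhibition lets β-catenin reach the nucleus and act with TCF/LEF factors on genes such as *Axin2* and *Sp5*. During axis formation Wnt signaling is known as a posteriorizing signal, under which neural precursors take on hindbrain and spinal cord character and express *Hox* genes of higher paralogue number. Dorsal neural tube cells, which lie near Wnt and BMP sources, are known for *Zic*, *Pax3*, and *Msx* genes, and ventral cells for *Olig2* and *Nkx6-1*.

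Single cells settle on a BD Rhapsody cartridge in microwells with barcoded beads, and a transcript was counted as captured with at least 1 read. The level of a gene is the mean over the cells of a line of its reads per 10000 reads of the cell. The log2 ratio of the CN4 level to the KN1 level was centered on the median of genes of like genomic span, in 10 classes of equal size, and a gene was called past 4-fold at a centered log2 ratio of at least 2 in size. This centered log2 ratio is called the ratio below, and is positive where CN4 was higher. CN4 cells had medians of 6572 reads (range, 975 to 13365) and 2824 genes, and KN1 cells had medians of 5862 reads (range, 955 to 34345) and only 833 genes. Thinned to 3200 reads each, 3158 CN4 cells had a median of 1844 genes, and 3396 KN1 cells had 764, with 290 and 579 shallower cells left out. The median reads per captured gene of a cell were 2.32 in CN4 and 6.99 in KN1, with 2.06 in XN1 and 3.18 in XN4. Counts are of reads and not of molecules, so thinning evens out reads only, and shares after thinning are not corrected for this difference. The tables of both lines shared 20 cell barcodes, without which the counts of called genes given below were 456 and 518. As cells of 1 library are not replicates, the exact (Clopper-Pearson) 95% intervals of cell shares given below cover counting error only.

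The difference in genes per cell was accompanied by a shift toward long genes in KN1. Of 11644 genes listed in both tables with a known span and captured in at least 1% of cells on average, the shortest class (median span 3.46 kb) had a median log2 ratio of 0.60, the class around 70.0 kb had -0.14, and the longest class (median 283 kb) had -1.60. Genes of the longest class took up 23.6% of KN1 reads, against 7.41% in CN4, 7.35% in XN1, and 9.61% in XN4. In this share KN1 stood apart from all other lines, and CN4 did not. *Malat1*, a long noncoding RNA retained in the nucleus, had a level of 40.3 in CN4 and 322 in KN1, and 58.4 in XN1 and 214 in XN4. Among 238 long intergenic noncoding RNAs tested, 27.7% were past 4-fold toward KN1 and 2.52% toward CN4, and among 150 antisense RNAs these fractions were 22.0% and 2.67%. Widely used reference genes lay on the CN4 side, with a median centered log2 ratio of 1.10 over 16 genes, equal to 2.14-fold. The ratios below were centered within length classes, and what remains of this difference in RNA make-up moves with them; its part in single results was not tested.

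**Figure D1:**
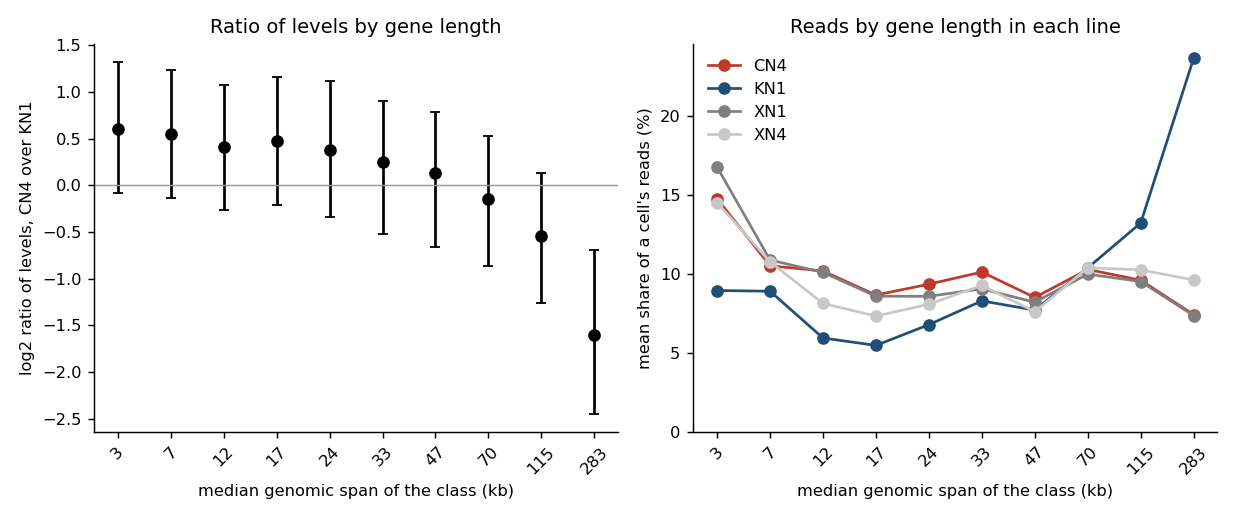
Left, median (point) and quartiles (bar) of the log2 ratio of the CN4 to the KN1 level before centering, in 10 classes of genomic span named by their median span in kb, and right, the mean percent of a cell's reads in each class for the 4 lines. The class medians run from 0.60 for the shortest genes to -1.60 for the longest, and KN1 rises to 23.6% of reads in the longest class.

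On this scale 455 genes were past 4-fold higher in CN4 (3.91% of those tested) and 518 were past 4-fold higher in KN1 (4.45%), 8.36% together, while 65.4% lay within 2-fold. These fractions are the background for every gene list below. The split depends on the scaling. Centered on the median of the 16 reference genes instead, 54 genes were past 4-fold higher in CN4 and 4246 in KN1, and with both the length classes and the reference genes 103 and 2316. The median of all genes was then -1.57 and -1.10, respectively. Of 49 genes of the lists called toward CN4, 13 and 20 kept the call under these centers. Accordingly, a ratio of 0 below means the middle of the genes of like length, and not an equal number of molecules. Another 1429 genes were listed in the CN4 table only, 9.72% of those it listed, and 1397 in the KN1 table only, 9.52%. These are the background for members listed in 1 line only. The tables left out rare genes, as the rarest gene listed had reads in 3 cells of CN4 and in 7 cells of KN1, so no ratio was computed for these.

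The 15 genes with the largest ratio toward CN4, among genes captured in at least 10% of CN4 cells, were led by secreted factors, transporters, and patterning factors. *Bmp5*, a secreted BMP ligand (from 75775364 to 75900310 on the plus strand of chromosome 9, GRCm38), came first. Its level was 1.71 in CN4 and 0.0101 in KN1, and 0.00819 in XN4, while it was not listed in XN1. The centered log2 ratio was 7.94. *Bmp5* reads were captured in 45.5% of CN4 cells (43.9% to 47.2%) and 0.478% of KN1 cells (0.288% to 0.745%), and after thinning in 33.7% and 0.265%. The KN1 share rested on 19 cells, so the size of this ratio is less certain than its direction.

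*Hoxc8* and *Pax3*, the patterning factors of this group, showed the same contrast. *Hoxc8* is a homeobox factor of thoracic levels. Its level was 2.96 in CN4 and 0.0207 in KN1, it was not listed in XN1 and XN4, and its centered log2 ratio was 6.56. It was captured in 45.5% of CN4 cells (43.9% to 47.2%) and 0.327% of KN1 cells (0.174% to 0.559%). The gene lies from 102990607 to 102994111 on the plus strand of chromosome 15 within the annotated span of *Hoxc5*, so their reads may be split between them. *Pax3* is a paired-box factor of the dorsal neural tube and neural crest (from 78101267 to 78197134 on the minus strand of chromosome 1). The *Pax3* level was 0.367 in CN4 and 0.00514 in KN1, with a centered log2 ratio of 6.70 and capture in 15.5% of CN4 cells (14.4% to 16.8%) and 0.352% of KN1 cells (0.193% to 0.590%). It was not listed in XN1 and had a level of 0.0118 in XN4.

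Glial transport and metabolic genes made up a second part of these 15 genes. *Slc1a2*, the main astrocyte glutamate transporter, had a level of 2.32 in CN4 and 0.0710 in KN1 (centered log2 ratio 5.58), and was captured in 49.1% of CN4 cells and 1.28% of KN1 cells. The creatine synthesis enzyme gene *Gatm* had a ratio of 6.75. *Selenop*, a secreted selenium carrier, had a level of 10.1 in CN4 and 0.0667 in KN1, but also 3.96 in XN1 and 6.10 in XN4, so KN1 was the line that lay apart. *Selenop* overlaps *Ccdc152* on the opposite strand, and the strand used for counting is not given in the sources used here. The lipoprotein-associated phospholipase gene *Pla2g7* had a level of 5.38 in CN4 and 0.117 in KN1, and 1.19 in XN1 and 0.137 in XN4. *Tmem144*, a membrane protein gene, had a ratio of 5.22 and the smallest CN4 share of these genes, 11.9%.

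Adhesion, receptor, and mesenchyme-associated genes were the remainder. The neural adhesion genes *Cntn1* and *Chl1* had centered log2 ratios of 6.20 and 5.36, and *Gria4*, an AMPA-type glutamate receptor subunit gene, had a ratio of 6.53. *Chl1* was captured in 73.0% of CN4 cells and 4.10% of KN1 cells, and its level was 1.59 in XN1 and 0.0132 in XN4. The basement membrane gene *Nid1*, the cadherin gene *Cdh11*, and the mesenchymal homeobox gene *Prrx1* had ratios of 5.12, 5.04, and 4.78. Their levels were even higher in XN4 than in CN4. For *Prrx1* the level was 0.993 in CN4 and 0.0398 in KN1, and 0.137 in XN1 and 7.91 in XN4, so *Prrx1* was not highest in CN4 among the lines.

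In the other direction the 15 genes were dominated by ion channel, synaptic, and noncoding genes. *Kcnb2*, a voltage-gated potassium channel gene, had a level of 0.00717 in CN4 and 3.52 in KN1, 0.00655 in XN1 and 0.0145 in XN4, and a centered log2 ratio of -7.34. *Grin2a*, an NMDA receptor subunit gene, had a ratio of -5.68, the calcium channel gene *Cacna1d* had a ratio of -4.80, and *Lrrc7*, a gene of a postsynaptic scaffold protein, had a ratio of -4.95. *Lrrc7* was captured in 2.52% of CN4 cells and 38.6% of KN1 cells. These are genes of long span, and the pipeline settings for intronic reads of KN1 are not given in the sources used here.

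*Lin28b* encodes an RNA-binding protein that restrains let-7 maturation and is known from early developmental stages (from 45376620 to 45486395 on the minus strand of chromosome 10). The *Lin28b* level was 0.0123 in CN4 and 1.92 in KN1, and 0.00594 in XN1 and 0.0117 in XN4. The centered log2 ratio was -6.74, and *Lin28b* was captured in 0.667% of CN4 cells (0.423% to 0.999%) and 16.3% of KN1 cells (15.2% to 17.5%). After thinning the shares were 0.222% and 13.6%. *Slc17a9*, a vesicular nucleotide transporter gene, had a ratio of -6.16, *Plcl1*, a phospholipase C-like gene, had a ratio of -4.37, *Il31ra*, a cytokine receptor gene, had a ratio of -4.47, and *Fam185a* had a ratio of -4.91. The other 6 of the 15 were noncoding or unnamed transcripts, led by *Gm2164* (level 0.00389 in CN4 and 1.34 in KN1, centered log2 ratio -7.89). *Gm2164* lies antisense to *Pou3f1*, a POU factor of the epiblast and early neural cells, which itself had a ratio of -3.59. Reads of these 2 genes cannot be told apart without strand. *Gm19951* was abundant in 1 other line as well, with 0.135 in XN1 and 1.82 in XN4.

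**Figure D2:**
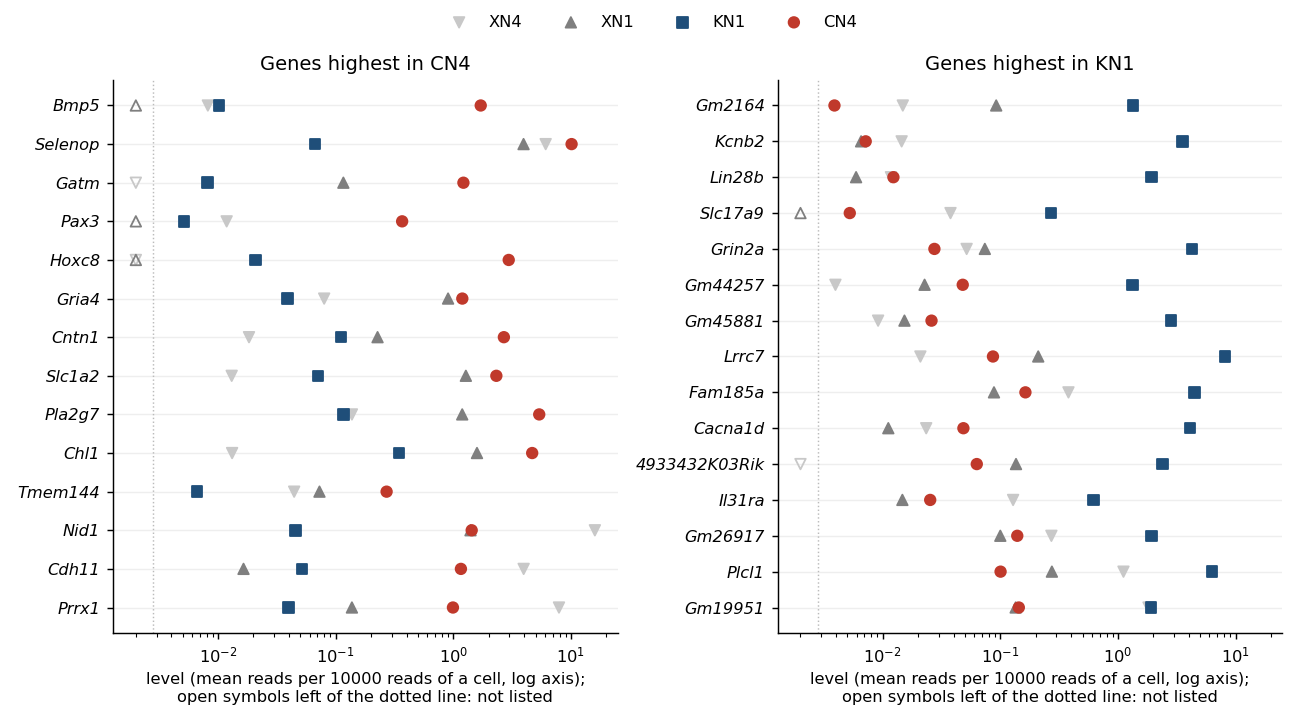
Levels of the reported genes with the largest centered ratio in each direction (mean reads per 10000 reads of a cell, log axis), with 1 point for each of the 4 lines, and open symbols left of the dotted line where a gene was not listed. CN4 and KN1 lie far apart for each gene by choice, while XN4 passes the higher line for *Nid1*, *Cdh11*, and *Prrx1*.

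All 30 genes had the higher share of capturing cells in the line with the higher level. This held as deposited, after thinning, and with at least 2 reads required. Both an extreme ratio and a minimum share in the higher line were conditions of the choice. The order of the shares was therefore largely set by the choice and is no separate test. The genes were spread over most cells of each line. In 3158 thinned CN4 cells, 87.1% captured at least 3 of the 15 CN4 genes (median, 5 genes), against 0.0883% of 3396 thinned KN1 cells. At least 3 of the 15 KN1 genes were captured in 54.3% of KN1 cells (median, 3 genes) and in 0.158% of CN4 cells. As the genes were chosen for their levels and shares in these cells, these per-cell counts describe their spread over cells only. No CN4 cell and no KN1 cell captured 5 or more genes of the opposite set, for which the exact intervals allow shares of up to 0.117% and 0.109%.

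**Figure D3:**
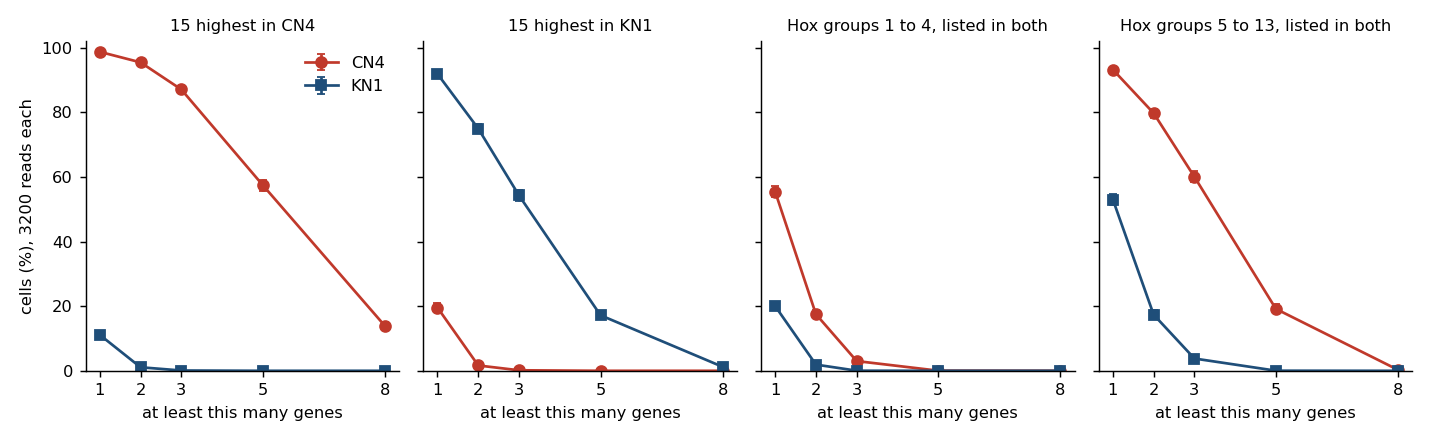
Percent of cells thinned to 3200 reads (vertical axis) that captured at least a given number of genes of a set (horizontal axis), for the 15 CN4 genes, the 15 KN1 genes, and the *Hox* genes listed in both lines in 2 groups, with exact 95% intervals as bars. At 3 genes the lines are at 87.1% and 0.0883% for the CN4 genes, 0.158% and 54.3% for the KN1 genes, and 60.1% and 3.80% for the 10 genes of *Hox* groups 5 to 13 (CN4 and KN1).

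Genes listed in only 1 of the tables added patterning factors on both sides. *Zic1*, a zinc finger factor of the dorsal neural tube, had a CN4 level of 2.46 and was captured in 62.6% of CN4 cells, with 45.9% after thinning, while it was not listed in KN1. *Hoxc6* (25.2% of CN4 cells), *Zic5* (24.9%), the Iroquois genes *Irx1* (21.7%) and *Irx2* (14.8%), and *Hoxc5* (15.4%) were also listed in CN4 only. The group was completed by the prokineticin receptor gene *Prokr1* (19.1%), *Plp2* (18.3%), the cathepsin C gene *Ctsc* (17.1%), and the secreted factor gene *Ndnf* (16.2%).

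On the KN1 side the captured shares were smaller. *Sp8*, a zinc finger factor placed among Wnt targets and intermediate neural tube factors, had a level of 1.39 and was captured in 14.1% of KN1 cells (13.02% to 15.2%). *Nkx6-1*, a ventral homeobox factor, was captured in 4.05% (3.46% to 4.71%). Neither was listed in any other line. The 8 further genes, with *Gm39139* (3.67%) and *D5Ertd615e* (2.87%) first, were mostly unnamed transcripts, together with *Aoah* (2.24%), which encodes a hydrolase of bacterial lipids.

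The question posed by CHIR99021 begins with the Wnt target and feedback genes. Of 26 list genes 14 were tested, 3 were past 4-fold higher in CN4 and 0 in KN1 against a background of 3.91% and 4.45%, and the median centered log2 ratio was 0.95, below the 1.10 of the reference genes, so that with the length classes and then the reference genes as the center it turned to -0.15. *Axin2*, a feedback scaffold of the destruction complex and a common Wnt readout, had a level of 0.962 in CN4 and 0.176 in KN1, and 0.216 in XN1 and 0.0321 in XN4. It was captured in 35.3% of CN4 cells (33.7% to 36.9%) and 2.01% of KN1 cells (1.599% to 2.50%), with 23.4% and 1.65% after thinning. Its centered log2 ratio was 2.20, and centered on the reference genes only it was 0.75. CN4 thus had the highest *Axin2* level of the 4 lines on the measured scale, but not by 4-fold over KN1 when set against reference genes.

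Secreted Wnt modulators were the others past 4-fold. *Sfrp2*, which encodes a secreted Frizzled-related protein, had levels of 0.403 in CN4 and 0.0351 in KN1 (ratio 2.97), and *Wif1*, the Wnt inhibitory factor gene, had levels of 0.168 in CN4 and 0.0272 in KN1 (ratio 2.77). Both fell under 4-fold with reference-gene centering. *Ccnd1* (cyclin D1) had levels of 13.3 in CN4 and 2.80 in KN1 with a ratio of 1.84, and the feedback inhibitor *Nkd1* had levels of 0.489 in CN4 and 0.155 in KN1 (ratio 1.80). *Kremen1*, a Dickkopf receptor gene, and *Myc* had ratios of 1.90 and 1.5. The Wnt-amplifying receptor gene *Lgr5* had levels of 0.675 in CN4 and 1.09 in KN1 and a ratio of -0.15. Of the 14 genes tested 4 lay below 0, the lowest at -1.03, so not every Wnt target lay on the CN4 side. *Sfrp1* and *Znrf3* also had lower levels in CN4 than in KN1. Summed over the list, levels were 22.1 in CN4 and 15.3 in KN1, but 31.0 in XN1 and 8.91 in XN4. *Ccnd1* alone made up 13.3 of the CN4 sum and 2.80 of the KN1 sum, and without it the CN4 sum would be the lower of these lines. *Sp5* was listed in CN4 only, at 0.0164 in 0.957% of cells, as were *Notum*, *Dkk3* (11.8% of cells), and *Apcdd1*. *Dkk1*, *Cdx1*, *Cdx2*, and *Cdx4* were listed in neither line.

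Promoter sequence is shown for *Axin2*, the Wnt readout listed in both lines, and for the related factors *Sp5* and *Sp8*, listed in opposite lines. These are the 250 bases before the annotated start on the plus strand (RefSeq, GRCm38.p6), at chr11:108920099-108920348, chr2:70474673-70474922, and chr12:118846983-118847232, respectively. Capitals mark 7-letter TCF/LEF matches, for which CTTTGAA was searched along with CTTTGAT and, further, CTTTGTA together with CTTTGTT, on both strands.
Axin2: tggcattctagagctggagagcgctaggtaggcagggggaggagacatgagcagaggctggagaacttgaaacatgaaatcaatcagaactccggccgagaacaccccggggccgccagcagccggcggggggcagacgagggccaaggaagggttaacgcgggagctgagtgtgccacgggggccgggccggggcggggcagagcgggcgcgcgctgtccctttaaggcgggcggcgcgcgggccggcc
Sp5: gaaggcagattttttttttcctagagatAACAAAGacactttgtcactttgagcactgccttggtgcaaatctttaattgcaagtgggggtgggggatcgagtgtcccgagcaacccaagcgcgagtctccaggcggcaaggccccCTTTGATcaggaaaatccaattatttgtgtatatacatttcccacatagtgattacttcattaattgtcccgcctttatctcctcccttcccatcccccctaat
Sp8: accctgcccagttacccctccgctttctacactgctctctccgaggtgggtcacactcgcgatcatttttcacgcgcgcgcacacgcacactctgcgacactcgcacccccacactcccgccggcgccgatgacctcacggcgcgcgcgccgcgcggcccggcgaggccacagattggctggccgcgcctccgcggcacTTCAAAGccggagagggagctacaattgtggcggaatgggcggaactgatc
Sp5 held 2 matches, starting 222 and 104 bases before the start, Sp8 held 1 at 51 bases before it, and Axin2 held 0 in this window. Of 32851 mouse promoter windows of this length, 14.8% held at least 1 match and 1.43% held 2 or more, while 6 of 25 windows belonging to 16 list genes did (24.0%). A match is a string of letters and not a bound site, and the absence of one in this window says nothing of the factor.

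The list of Wnt receptors and destruction complex components had 28 of 30 genes tested, with 2 past 4-fold higher in CN4 and 0 in KN1, and a median of 0.25 that lay below 0 with either reference-gene center. The Frizzled receptor gene *Fzd10* had levels of 0.748 in CN4 and 0.0642 in KN1 (ratio 2.94). *Ctnnb1*, the gene of β-catenin, had levels of 11.2 in CN4 and 1.97 in KN1 (ratio 2.25), and this gene overlaps *Ulk4* on the opposite strand. Both lost the call with either reference-gene center, and *Ctnnb1* also with classes of length and level. *Dvl1*, which relays the receptor signal, had levels of 0.134 in CN4 and 0.396 in KN1, just inside the 4-fold limit on the KN1 side. The ligand genes *Wnt3* and *Wnt8b* were listed in CN4 only.

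Genes of all 4 *Hox* clusters were listed in both lines, at different levels and in different numbers. Summed *Hoxc* levels were 4.60 in CN4, over 6 listed genes, and 0.0207 in KN1, where only *Hoxc8* was listed. Summed *Hoxb* levels were 11.8 and 4.75, over 8 listed genes in each line, and summed *Hoxd* levels were 0.640 and 0.246. *Hoxa* sums were close, with 5.14 in CN4 and 4.65 in KN1. Neither XN1 nor XN4 listed a *Hoxb* or *Hoxc* gene. Their *Hoxa* sums were 1.61 in XN1 and 0.00641 in XN4. The *Hoxd* sum of XN4 was 0.436, above that of KN1, while XN1 listed no *Hoxd* gene. KN1 and CN4 both listed several *Hoxa* and *Hoxb* genes.

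From *Hoxb5* to *Hoxb9* the ratio was larger at each higher paralogue number, with small steps between *Hoxb6*, *Hoxb7*, and *Hoxb8*. This order did not hold over the whole cluster, as *Hoxb2* lay above *Hoxb5* to *Hoxb8*. Tested genes of groups 1 to 4, over all clusters, ran from -0.66 to 2.18. With 1 library a line, no trend was tested. *Hoxb9*, the most 5′ *Hoxb* gene listed, had levels of 3.23 in CN4 and 0.355 in KN1 (ratio 2.59) and was captured in 62.6% of CN4 cells (60.9% to 64.2%) and 5.33% of KN1 cells (4.66% to 6.08%). *Hoxb8*, *Hoxb7*, and *Hoxb6* had ratios of 0.89, 0.76, and 0.64, *Hoxb5* had -1.001, and *Hoxb2*, near the 3′ end, was again past 4-fold at 2.18. The ratios of *Hoxb6*, *Hoxb7*, and *Hoxb8* lay below the 1.10 of the reference genes, so they turn toward KN1 with length classes and then reference genes as the center. *Hoxb9* fell under 4-fold with either reference-gene center, at a lowest value of 1.49. *Hoxb2* overlaps the antisense *Hoxb3os* and fell under 4-fold under several of the other settings. *Hoxa5* had levels of 1.86 in CN4 and 1.82 in KN1 (ratio -0.57) and *Hoxa7* had levels of 2.36 in CN4 and 2.45 in KN1 (ratio -0.60). For these the shares went the opposite way to the centered ratio, as *Hoxa5* was captured in 53.9% of CN4 cells and 18.7% of KN1 cells with 2.33 and 6.72 reads per capturing cell. No order of the lines was read for *Hoxa5* and *Hoxa7*.

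By paralogue group, 1 of 8 tested genes of groups 1 to 4 was past 4-fold higher in CN4 (*Hoxb2*), 1 of 8 of groups 5 to 8 (*Hoxc8*), and 1 of 1 of groups 9 to 13 (*Hoxb9*). None of the 17 was past 4-fold toward KN1. *Hoxc4*, *Hoxc5*, *Hoxc6*, *Hoxc9*, *Hoxc10*, *Hoxa9*, *Hoxa10*, *Hoxd3*, and *Hoxd9* were listed in CN4 only, and 0 *Hox* genes were listed in KN1 only. The levels of *Hoxc9* and *Hoxa9* in CN4 were 0.301 and 0.211. *Hoxc10* was near the floor, at 0.0102 in CN4 cells with reads of *Mki67*, *Top2a*, or *Hmgb2* and 0.00810 in those without. From microarrays, the study reported expression of *Hoxc9* in CN4 and none of *Hoxc10*. *Hoxc6*, *Hoxc9*, and *Hoxc10* overlap the annotated span of *Hoxc5*. Of the 10 genes of groups 5 to 13 listed in both lines, at least 3 were captured in 60.1% of thinned CN4 cells (58.3% to 61.8%) and in 3.80% of thinned KN1 cells (3.18% to 4.50%), and at least 1 in 93.3% and 53.0%. Thinned KN1 cells captured fewer genes in general, 764 against 1844, and the part of this in the shares was not tested. Among 9 genes for Hox cofactors of the Meis and Pbx families, only *Pbx4* was past 4-fold, toward KN1 (ratio -3.15).

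**Figure D4:**
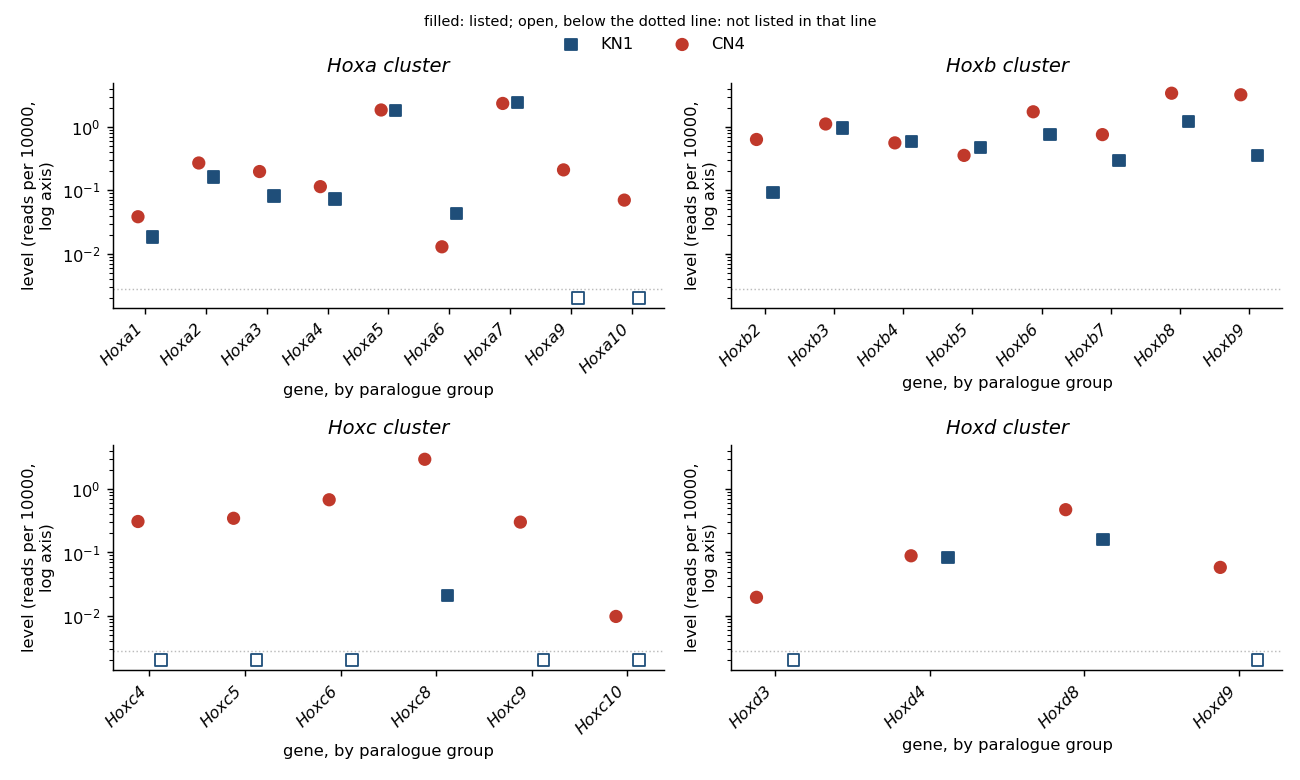
Levels of the *Hox* genes listed in CN4 or KN1 (mean reads per 10000 reads of a cell, log axis), ordered by cluster and paralogue number, with CN4 and KN1 as separate points and open symbols below the dotted line where a gene was not listed in a line. *Hoxc* genes other than *Hoxc8* were not listed in KN1, *Hoxb9* lies at 3.23 in CN4 and 0.355 in KN1, and *Hoxa5* and *Hoxa7* nearly coincide.

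Region factors were mostly listed in neither line. Of 21 brain region factors, 12 were in neither, among them the forebrain and midbrain genes *Otx1*, *Six3*, *Rax*, and *Emx2*, and 3 were tested. *Gbx2*, a hindbrain factor, had levels of 0.505 in CN4 and 0.0499 in KN1 (ratio 2.74), *En1*, of the midbrain-hindbrain region, had levels of 0.824 in CN4 and 0.144 in KN1 (ratio 1.97), and the forebrain factor *Lhx2* had levels of 0.0278 in CN4 and 0.304 in KN1 (ratio -3.70). *Pax2* and *Pax5* were listed in KN1 only, and *En2*, *Irx1*, and *Irx2* in CN4 only.

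Along the dorsoventral axis, more dorsal factors were listed in CN4 only than in KN1 only. Of 18 dorsal factors 7 were listed in CN4 only, namely *Zic1*, *Zic2*, *Zic4*, *Zic5*, *Msx1*, *Msx2*, and *Gsx1*, and *Lmx1a* and *Lmx1b* in KN1 only, against backgrounds of 9.72% and 9.52% of the genes listed. Neither these counts nor the backgrounds weigh level, so they do not compare genes of like level. In CN4 cells with reads of *Mki67*, *Top2a*, or *Hmgb2*, the *Msx1*, *Msx2*, and *Gsx1* levels were near the floor, at 0.00596, 0.00901, and 0.00582. In such KN1 cells *Lmx1a* and *Lmx1b* had levels of 0.0136 and 0.174. *Zic1* and *Zic4* overlap on opposite strands. *Pax3* was the only 1 of 3 tested past 4-fold. Among 4 intermediate factors tested, *Dbx2* had levels of 0.689 in CN4 and 0.0246 in KN1 (ratio 4.56), and *Pax6* had a ratio of -0.12. Of this list *Dbx1* and *Sp8* were listed in KN1 only, and 0 genes in CN4 only. Of 3 ventral factors tested 0 were past 4-fold. *Olig2* had levels of 9.37 in CN4 and 3.16 in KN1 (ratio 0.97), below the median of the reference genes, *Nkx6-1* was listed in KN1 only, and *Shh* in CN4 only.

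BMP and retinoic acid genes included members far out on both sides. Of 25 BMP and TGF-β genes tested 3 were past 4-fold higher in CN4 and 2 in KN1, with a median of 0.94 that turned to -0.16 with length classes and then reference genes as the center. Besides *Bmp5*, the ligand gene *Bmp7* had levels of 0.385 in CN4 and 0.0301 in KN1 (ratio 3.82), and *Id2*, an inhibitor of bHLH factors and a BMP target, had levels of 1.76 in CN4 and 0.140 in KN1 (ratio 3.05). The target *Id4* was listed in CN4 only and captured in 13.2% of its cells, along with the ligand genes *Bmp2*, *Bmp4*, and *Tgfb1* and the antagonist genes *Nog* and *Chrd*. The antagonist gene *Fst* (ratio -2.82) and the receptor gene *Tgfbr1* (ratio -2.19) were on the KN1 side. Of 9 retinoic acid genes tested 2 were past 4-fold higher in CN4 and 1 in KN1, among them the synthesis enzyme genes *Aldh1a1* (ratio 3.34) and *Aldh1a3* (ratio -3.01).

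Notch, Hedgehog, EGF, and FGF components differed in few members. Of 17 Notch genes tested, the ligand gene *Dll3* (ratio 2.66) and *Rbpj* (ratio 2.12), the DNA-binding partner of Notch, were past 4-fold higher in CN4, and *Rbpj* lost the call with 5 or 20 length classes and reversed to -1.18 when centered on the reference genes without length classes. Of 9 Hedgehog genes 1 was past 4-fold, the co-receptor gene *Cdon*, with levels of 0.147 in CN4 and 2.50 in KN1 (ratio -3.95). Of 23 EGF and FGF genes, *Fgf2* (ratio 3.21) and the feedback inhibitor *Il17rd* (ratio 2.56) were higher in CN4, and the receptor genes *Erbb4* (ratio -2.41) and *Fgfr3* (ratio -2.33) in KN1. Both cultures received EGF and FGF2.

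All 16 neural stem cell markers were listed in both lines. *Sox2*, the core SoxB1 factor of NSCs, had levels of 5.87 in CN4 and 1.15 in KN1 (ratio 1.75) and was captured in 83.9% of CN4 cells and 13.9% of KN1 cells. *Sox1*, its paralogue, had levels of 0.675 in CN4 and 0.0230 in KN1 (ratio 4.28), and the radial glial lipid carrier *Fabp7* had levels of 38.8 in CN4 and 3.74 in KN1 (ratio 2.77), the only 2 markers past 4-fold. The radial glial glutamate transporter *Slc1a3* had levels of 24.8 in CN4 and 27.8 in KN1 (ratio -0.02), *Vim* had a ratio of 1.69, and *Nes* had a ratio of -0.95. NSC markers were therefore captured in both lines, with low shares of *Sox1* and *Sox2* in KN1, where fewer genes were captured per cell in general.

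Among lists with at least 3 genes tested, only connective tissue markers (6 tested, median 2.48) had a higher median than astrocyte markers. Of 12 astrocyte markers 7 were tested, 4 were past 4-fold higher in CN4, all 7 were above 0 with a median of 2.23, and 5 were listed in CN4 only. The median stayed above 0 with both reference-gene centers, at 0.78 and 1.13. Those past 4-fold were *Slc1a2*, the folate enzyme gene *Aldh1l1* (ratio 4.27), the lipid carrier *Apoe* (ratio 2.45), and *Sparcl1* (ratio 2.23). *Gfap* was captured in 3.80% and *S100b* in 11.2% of CN4 cells. These summed to levels of 24.0 in CN4 and 4.87 in KN1, with 20.8 in XN1 and 10.6 in XN4, so the low side was KN1. Of 7 oligodendrocyte precursor markers tested 2 were past 4-fold higher in CN4 (*Lhfpl3*, 3.52, and *Dll3*), while *Sox10*, *Pdgfra*, and *Cspg4* were listed in CN4 only. Of 7 neuron markers 1 was, *Dcx*, a microtubule protein gene of young neurons (ratio 2.95), against a list median of -0.83, while *Nefl*, *Nefm*, and *Neurod1* were listed in CN4 only.

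Markers of cells outside the neural lineage were captured as well. Of 15 connective tissue markers 6 were tested, and *Prrx1*, *Col5a2* (ratio 4.39), and *Col3a1* (ratio 3.16) were past 4-fold higher in CN4, although *Col3a1* was captured in 0.812% of CN4 cells and 1.23% of KN1 cells. *Col1a1*, *Col1a2*, *Postn*, *Lum*, and *Twist1* were listed in CN4 only, and *Acta2* in KN1 only. All 6 tested genes lay above 0, with a median of 2.48. The list summed to 2.21 in CN4 and 0.336 in KN1, against 2.19 in XN1 and 85.7 in XN4. Of 4 neural crest markers tested, *Pax3* and *Ets1* (ratio 2.81) were past 4-fold higher in CN4, and *Sox10*, *Tfap2b*, *Snai2*, and *Ngfr* were listed in CN4 only. The mesoderm list had *Foxc1* (ratio 2.50) as its only tested gene. Of 10 epiblast markers 7 were listed in neither line, and 2 were tested, both below 0, with *Pou3f1* (ratio -3.59) past 4-fold toward KN1. *Pou5f1* was captured in 0.232% of CN4 and 0.277% of KN1 cells. *Cd68*, a macrophage and lysosome gene, was the only tested blood marker, at -3.32.

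Reads of division genes were captured in a larger share of CN4 cells. At least 1 read of *Mki67*, *Top2a*, or *Hmgb2* was captured in 79.4% of CN4 cells (78.0% to 80.8%) and in 54.0% of KN1 cells (52.5% to 55.6%), with 74.3% and 54.8% after thinning. Of 15 G2-M genes 0 were past 4-fold (median 0.55), and of 15 S phase genes (median 0.68) only *Pcna*, the replication clamp gene (ratio 2.37), was. Both medians turned below 0 with either reference-gene center, and *Pcna* lost the call there and among cells with no read of the division genes. Thinned KN1 cells captured fewer genes of any kind, and the part of this in the shares was not tested. The leading CN4 genes were present in both kinds of cell. *Bmp5* had a CN4 level of 1.69 in cells with and 1.80 in cells without them, and *Hoxc8* had 2.93 and 3.06. For *Slc1a2* the levels were 2.10 and 3.18, and for *Lin28b* in KN1 they were 2.01 and 1.81. Among cells without such reads, 626 genes were past 4-fold higher in CN4 and 650 in KN1.

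Developmental timing and imprinted growth genes stood out at both ends. Of 17 tested 3 were past 4-fold higher in CN4 and 2 in KN1. On the KN1 side, beside *Lin28b*, was *Zfp57*, which guards imprints in early embryonic cells, with levels of 0.119 in CN4 and 0.801 in KN1 (ratio -3.30). The CN4 side held the cell cycle inhibitor *Cdkn1c* with levels of 0.718 in CN4 and 0.0396 in KN1 (ratio 3.58), the Notch-like factor *Dlk1* (ratio 2.51), and the clearance receptor *Igf2r* (ratio 2.18), all known as imprinted genes. *H19*, *Meg3*, and *Hmga1* were listed in CN4 only.

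Matrix genes had more members past 4-fold than any other list. Of 25 collagen and matrix genes tested 8 were past 4-fold higher in CN4 and 0 in KN1, with a median of 1.53, which was 0.43 with length classes and then reference genes as the center but -0.22 with reference genes only. Summed over the list, levels were 105.7 in CN4 and 49.3 in KN1, with 119.2 in XN1 and 184.6 in XN4. *Ptn*, the gene of the heparin-binding growth factor pleiotrophin, had levels of 50.9 in CN4 and 3.31 in KN1, 14.99 in XN1, and 6.98 in XN4, with a ratio of 4.49. Without *Ptn* the CN4 sum would lie nearer to that of KN1 than to those of XN1 and XN4, so the sums set no single line apart. Collagen genes followed with *Col5a2*, *Col18a1* (ratio 3.26), *Col3a1*, *Col9a3* (ratio 2.81), and *Col4a1* (ratio 2.72), and the neural proteoglycan genes *Cspg5* and *Ncan* had a ratio of 2.46 and 2.11. In contrast, *Tnc*, the gene of tenascin C, had levels of 6.90 in CN4 and 23.0 in KN1 (ratio -1.60). Centered on length classes and then reference genes, *Ptn*, *Col5a2*, *Col18a1*, and *Col3a1* stayed past 4-fold, and centered on reference genes only, *Ptn* and *Col5a2* did. As given above, *Col3a1* was captured in few cells of either line, and in a smaller share of CN4 than of KN1 cells. *Ncan* also fell under 4-fold with several other settings, such as all CN4 cells of the count table.

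Adhesion receptors are of interest because the lines differed in their preferred coating. Of 26 integrin and laminin genes tested, *Nid1* and the laminin receptor subunit gene *Itga6* (level 3.34 in CN4 and 0.866 in KN1, ratio 2.49) were past 4-fold higher in CN4, and the laminin chain gene *Lama4* (ratio -2.11) in KN1. *Itga6* lost the call with 1 length class and with either reference-gene center, down to 0.25. *Lama4* was close to the limit and fell under 4-fold in 7 of 18 settings, among them 5 or 20 length classes, pooled reads, and all CN4 cells of the count table.

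A list of long genes, named for synaptic adhesion, had higher levels in KN1 but lay near the middle of genes of like length. Not all its members are adhesion genes, as it also held *Fgf14* and the transcription factor genes *Sox5*, *Nfia*, and *Nfib*. Levels of the 33 genes summed to 49.9 in CN4 and 195.3 in KN1. After centering 2 were past 4-fold higher in CN4 and 3 in KN1, with a median of -0.15. *Fgf14* (ratio -2.99), *Csmd2* (ratio -3.26), and *Ctnna2* (ratio -2.36) remained on the KN1 side, and *Tenm4* (ratio 3.38) on the CN4 side. Of 32 axon guidance genes, the semaphorin receptor *Nrp2* (ratio 3.18) and *Ephb2* (ratio 2.76), *Sema5a* (ratio 2.65), *Ntn1* (ratio 2.02), and *Unc5b* (ratio 2.01) were past 4-fold higher in CN4 and *Sema5b* (ratio -2.62) in KN1. *Ntn1* and *Unc5b*, close to the limit, each lost the call in 11 of 19 settings, among them 5 or 20 length classes. *Ephb2*, *Sema5a*, and *Ntn1* reversed when centered on reference genes without length classes.

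**Figure D5:**
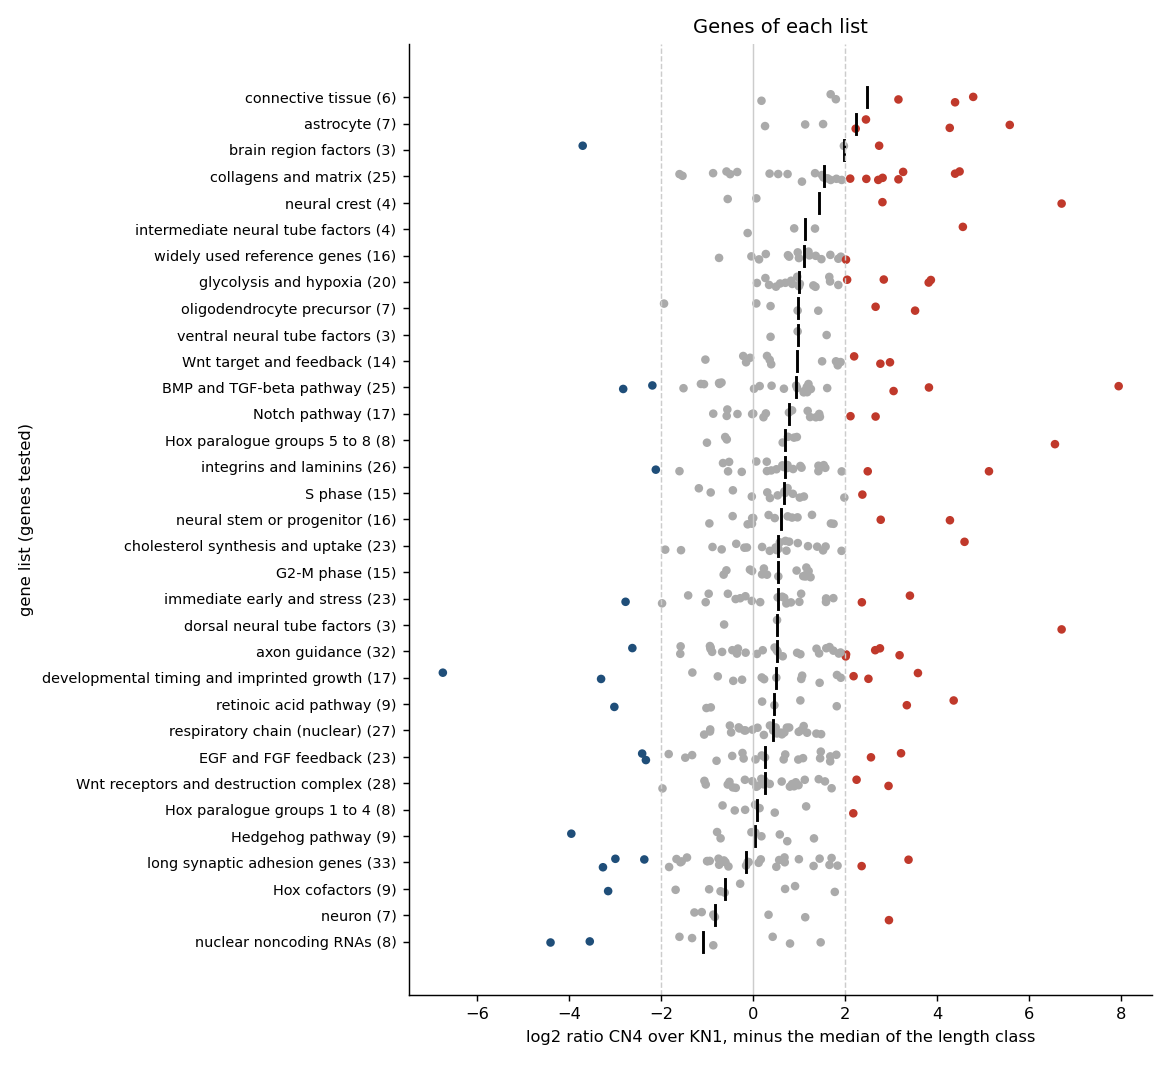
Centered log2 ratio of CN4 to KN1 (horizontal axis) of the tested genes of lists with at least 3 of them, with 1 point for each gene, a bar at the list median, and dashed lines at the 4-fold limits. Connective tissue markers, astrocyte markers, and matrix genes have medians of 2.48, 2.23, and 1.53, reference genes of 1.10, and nuclear noncoding RNAs of -1.09.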

How the data were processed

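NSC lines were captured on BD Rhapsody, with 1 library each. Samples were assigned by the line name in their titles. Values deposited by the authors for part of the cells of each line were on a natural log scale, taken of 1 plus the reads of a gene per 10000 reads of the cell, after removal of ribosomal protein and mitochondrial genes. Reads were recovered from the steps of these values, and 100% came out whole within 0.01. For CN4 the authors also deposited read counts of 18157 cells (BD Rhapsody WTA pipeline 1.12.1, GRCm38, GENCODE M19, intronic reads counted, per the file headers), used as an alternative. These counts hold all 3448 cells of the normalized table. The pipeline settings of KN1 are not given in the sources used here. The submitters' processing notes name Seurat 4.3.0 and mm10. Counts are of reads and not of molecular identifiers.

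Levels, ratios, shares, and thinning (seed 7) were computed with Python 3.11.15, numpy 2.4.6, scipy 1.17.1, and pandas 2.3.3, and tested on simulated data. Genomic spans came from GENCODE annotation of GRCm38 matched by symbol. With 1 library a line no p-value was computed. No cell was removed as a doublet, and no doublet caller was run. Named genes were the 15 with the highest and the 15 with the lowest centered ratio captured in at least 10% of cells of the higher line, the 10 with the highest share among genes listed in 1 table in each direction, and the members of 27 gene lists and 11 marker lists, those past 4-fold first. The gene lists and members were chosen with earlier results of these data known. The paragraph order and the example genes within 4-fold were set after values were seen. A few genes and 1 gene list are not reported here.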

Additional observations from a re-analysis of the deposited data

How the results depend on the processing

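No paired analysis was possible because each line was 1 library, and leaving out a replicate was not possible for the same reason. Main counts were 455 genes past 4-fold higher in CN4 and 518 in KN1, of which 49 and 19 were list genes. With 1 length class 930 genes and 48 list genes were higher in KN1, with exonic length 852, and with no filter on shares 837 of 13219. With a 5% filter 264 and 289 genes of 8739 were called in the directions of CN4 and KN1, with a 2-fold limit 1993 and 2037, and with an 8-fold limit 115 and 153. The alternatives with reference genes, division reads required, shared barcodes left out, classes of length and level, and protein-coding genes only were chosen after seeing the data. Centered on the reference genes, 54 and 4246 genes and 13 and 136 list genes were called, and with length classes and reference genes 103 and 2316 genes and 20 and 66 list genes. The other settings moved the counts by less than 1.5 times: 5 or 20 classes, pooled reads, cells of more or fewer reads, without the deepest 5%, with or without division reads, all 18157 CN4 cells, without the 10 most abundant genes, without the 20 shared barcodes (456 and 518), classes of length and level, and protein-coding genes only. Over 101 named genes and up to 21 settings each, 1895 values kept direction and call, 188 of 52 genes kept direction and lost the call, and 4 reversed. The reversed values, all on centering by reference genes only, were -0.54 for *Ephb2*, -1.28 for *Ntn1*, -1.18 for *Rbpj*, and -0.65 for *Sema5a*. This setting has no length classes, and these are genes of the longest class. With length classes kept, none of them reversed. The reported genes with the largest ratios in either direction kept their call under every setting in which they were tested. Some were tested in fewer settings, such as *Kcnb2* in 18, as it had no reads in CN4 cells without division reads. These genes were chosen as the extremes of the same ratio, and the settings use mostly the same cells, so kept calls were largely set by the choice. Depth limits the low side: the KN1 levels of *Bmp5* and *Pax3* rest on 19 and 14 cells, so folds of this size are uncertain beyond their direction.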

Other observations

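Glycolysis and hypoxia genes lay on the CN4 side of genes of like length. All 20 tested had a centered log2 ratio above 0, 4 were past 4-fold higher in CN4 (background, 3.91%), and the median was 1.01, just below the 1.10 of the reference genes. With length classes and then reference genes as the center this median turned to -0.09. *Pdk1*, which encodes a kinase that holds pyruvate back from the mitochondria, had a ratio of 3.86. *Bnip3*, a gene of mitochondrial turnover under low oxygen, had levels of 0.979 in CN4 and 0.0501 in KN1 (ratio 3.81), the glycolytic enzyme gene *Eno1* had levels of 3.15 in CN4 and 0.332 in KN1 (ratio 2.84), and *Egln3*, an oxygen sensor gene, had a ratio of 2.04, a call lost in 6 of 19 settings. Of these, *Pdk1* and *Bnip3* stayed past 4-fold when centered on the reference genes. Nuclear genes of the respiratory chain had 0 of 27 past 4-fold and a median of 0.44.

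Among 23 cholesterol genes 1 was past 4-fold, the efflux pump gene *Abca1*, with levels of 0.448 in CN4 and 0.0270 in KN1 (ratio 4.59). Of 23 immediate early and stress genes, *Fos* had levels of 2.76 in CN4 and 0.172 in KN1 (ratio 3.41) and *Ier3* had a ratio of 2.36 toward CN4, and *Chac1*, a gene of the unfolded protein response, had a ratio of -2.77 on the KN1 side. Both lines were dissociated and stored before capture, and whether these steps moved *Fos* was not tested.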
